A study of Mus musculus with 17 samples.

Results

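The expression of 8 complement genes was followed through the 13 macrophage RNA-seq libraries that have expression values. The genes were C1qa, C1qb, C1qc, C3, Cfb, Cfp, Cd55 and Cd59a. They were taken by gene symbol from a table of 24453 gene models, and all 8 were found, each as 1 model. Cd55 was at 0 in 3 libraries, Cd59a in 2 and the other members in 0. Of the 8, 7 reached the mean of 1 RPKM (reads per kilobase of exon, scaled to the size of the library) that was required for testing among the immortalised cells, and all 8 reached it among the primary cells.

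The study compared macrophages in which 1 AP-1 transcription factor gene had been targeted, and macrophages of 2 mouse strains with and without an inflammatory stimulus. Immortalised bone marrow-derived macrophages (iBMDMs) came from C57Bl/6EiJ bone marrow infected with a retrovirus carrying BRAF(V600E) and Myc, were of passage 3-8 and were untreated. All of them carried Cas9, and they had received either a Scramble control (named zsGreen in the sample titles) or guides against Atf3, Jun or Jund by lentivirus. They were kept as sorted populations, with no step of single-cell cloning described, so that a knockout may be a mixture of differently edited cells. Each of the 4 groups (Scramble, Atf3KO, JunKO and JunDKO) had 2 libraries. Thioglycollate-elicited peritoneal macrophages (TGEMs) were collected from 8-week-old mice 3 days after injection and received PBS vehicle or Kdo2 lipid A (KLA), a defined form of endotoxin that activates Toll-like receptor 4, for 1 h. For C57Bl/6EiJ there was 1 vehicle and 1 KLA library, and for Balb/cJ 1 vehicle and 2 KLA libraries. The labels do not say whether libraries of a group came from separate cultures or animals, so the p-values measure the spread between libraries, which may be technical.

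Complement is a cascade of plasma and cell-surface proteins that tags microbes, immune complexes and dying cells for removal. In the classical pathway the recognition molecule C1q, built from A, B and C chains encoded by C1qa, C1qb and C1qc, binds its target and switches on proteases that cleave C4 and C2 and then C3, the central protein on which all pathways converge. In the alternative pathway factor B (Cfb) joins deposited C3b to form a convertase that cleaves more C3, and properdin (Cfp) stabilises it. Decay-accelerating factor (Cd55) takes such convertases apart on host cells, and Cd59a blocks the membrane attack complex. Most complement proteins of the blood come from the liver, whereas C1q and properdin come largely from macrophages and other myeloid cells.

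The depth recovered from the table was 1553296 to 18444427 reads per library, of which 74.1% to 86.4% lay in the exons of the models. All 7 macrophage markers (Adgre1, Cd68, Csf1r, Fcgr1, Mertk, Lyz2 and Mrc1) were detected in every group. The RNA of the targeted genes was lower than in Scramble for 1 of 3 targets only. Scramble had Atf3 at 80.7 and 77.4 RPKM, and the Atf3KO libraries had it at 154 and 169, which passed as higher (1.02 ± 0.16 on the log2 scale, adjusted p = 0.0024). Jun was at 17.6 and 18.5 RPKM in Scramble and at 26.2 and 20.5 with the JunKO label. Jund was at 9.19 and 8.33 RPKM in Scramble and at 6.94 and 6.07 with the JunDKO label, and neither passed. RNA of a gene cut by Cas9 need not fall, so that this does not check the labels, and protein was not analysed here. Atf3KO, JunKO and JunDKO stand for the libraries so labelled. In Atf3KO Jund was at 22.6 and 83.0 RPKM and passed as higher than Scramble (limma, 2.19 ± 0.49, adjusted p = 0.010). Jun was at 17.9 and 46.2 RPKM there and did not pass (adjusted p = 0.19). The Atf3KO libraries stood apart from the other iBMDM libraries: they had reads in 10425 and 10631 models, against 11884 to 12533, and their log2 differences from Scramble were larger for genes of higher GC content (Spearman rho = 0.50 over 10617 genes, against 0.11 for JunKO and 0.09 for JunDKO). All TGEM libraries are labelled male, yet they held 863 to 8676 reads of Xist, the RNA of the inactive X chromosome, and 0 to 15 reads over 4 Y-linked genes, whereas the iBMDM libraries held 0 to 3 and 302 to 5860.

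The C1q chains are encoded side by side on the minus strand of chromosome 4 (mm10) within 18700 bases: C1qb at chr4:136880145-136886177, C1qc at chr4:136889802-136892914 and C1qa at chr4:136895916-136898844. C3 lies at chr17:57203967-57228136, Cfb at chr17:34856374-34862514, Cfp at chrX:20925454-20931555 and Cd55 at chr1:130439030-130462740, all on the minus strand, and Cd59a at chr2:104095801-104115410 on the plus strand. Cfb ends 1 base from the next model, Nelfe, which is read from the opposite strand, and lies 87 bases from C2. Since a strand option of the counting is not given in the sources used here, reads of Cfb and Nelfe near that boundary cannot be told apart. The RefSeq promoter table held 6 of the 8 members (all but C1qa and Cfb). The 250 bases before the RefSeq start are shown for a pair of C1q genes that moved together and for C3, which moved apart from them in JunDKO, on GRCm38.p6, the assembly that mm10 is made from. They were searched on both strands for an AP-1 site (TGANTCA), a cyclic AMP response element (CRE, TGACGTCA) and a C/EBP site (TTGCNNAA). Also searched were an ETS site (GAGGAA) and an NF-kB site (GGG, any 2 bases, then TTTCC). The shorter GGAA was not searched, so a promoter without GAGGAA may still hold it. Capitals mark the matches, on either strand. The RefSeq start of C1qb lies 23 bases from that of its deposited model.
C1qb, chr4:136886201-136886450, minus strand: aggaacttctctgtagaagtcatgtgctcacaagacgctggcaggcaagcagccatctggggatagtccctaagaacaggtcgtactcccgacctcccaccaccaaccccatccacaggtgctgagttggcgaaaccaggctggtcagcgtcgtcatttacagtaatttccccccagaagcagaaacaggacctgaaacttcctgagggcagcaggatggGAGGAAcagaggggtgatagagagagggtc
C1qc, chr4:136892915-136893164, minus strand: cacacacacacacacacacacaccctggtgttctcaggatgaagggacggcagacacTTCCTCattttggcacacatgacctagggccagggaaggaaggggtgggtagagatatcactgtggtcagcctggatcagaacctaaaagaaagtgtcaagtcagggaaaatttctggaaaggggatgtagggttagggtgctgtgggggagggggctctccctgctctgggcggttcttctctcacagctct
C3, chr17:57228137-57228386, minus strand: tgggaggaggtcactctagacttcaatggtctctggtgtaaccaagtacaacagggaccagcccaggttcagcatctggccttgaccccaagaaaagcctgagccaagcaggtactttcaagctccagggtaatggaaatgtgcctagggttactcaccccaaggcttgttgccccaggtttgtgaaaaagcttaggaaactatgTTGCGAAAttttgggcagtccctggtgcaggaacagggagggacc

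C1qb and C1qc each held 1 match to the ETS letters GAGGAA, which starts 30 and 193 bases before the RefSeq start. C3 held 1 match to the C/EBP letters, which starts 45 bases before its RefSeq start. Among all 6 member promoters, 3 held the ETS letters GAGGAA (23.3% of 32851 promoters of the same length did) and 1 held the C/EBP letters (9.56%). Of the 6, 0 held the AP-1 (6.75%), CRE (1.55%) or NF-kB letters (1.41%). A match is a description of the letters in this window only.

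In the iBMDMs, the genes of all 3 C1q chains were higher in every knockout library than in either Scramble library, and they rose in Atf3KO and in JunDKO. C1qa was at 82.7 and 64.6 RPKM in Scramble, 565 and 876 in Atf3KO, 251 and 166 in the JunKO libraries and 723 and 503 in JunDKO. Both JunKO libraries lay between Scramble and the other knockouts, and Atf3KO and JunDKO overlapped. C1qb was at 371 and 238 RPKM in Scramble, 1236 and 1555 in Atf3KO, 892 and 654 in the JunKO libraries and 2313 and 1870.2 in JunDKO. For this chain the 4 groups did not overlap and JunDKO was highest. Against Scramble alone, 37.4% of all genes tested were higher without overlap in Atf3KO, 19.1% in JunKO and 45.3% in JunDKO. C1qc was at 119.5 and 86.3 RPKM in Scramble, 695 and 1103 in Atf3KO, 308 and 224 in the JunKO libraries and 859.8 and 681 in JunDKO, in the same order as C1qa. Each C1q value in the iBMDMs rested on at least 119 reads.

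**Figure D1:**
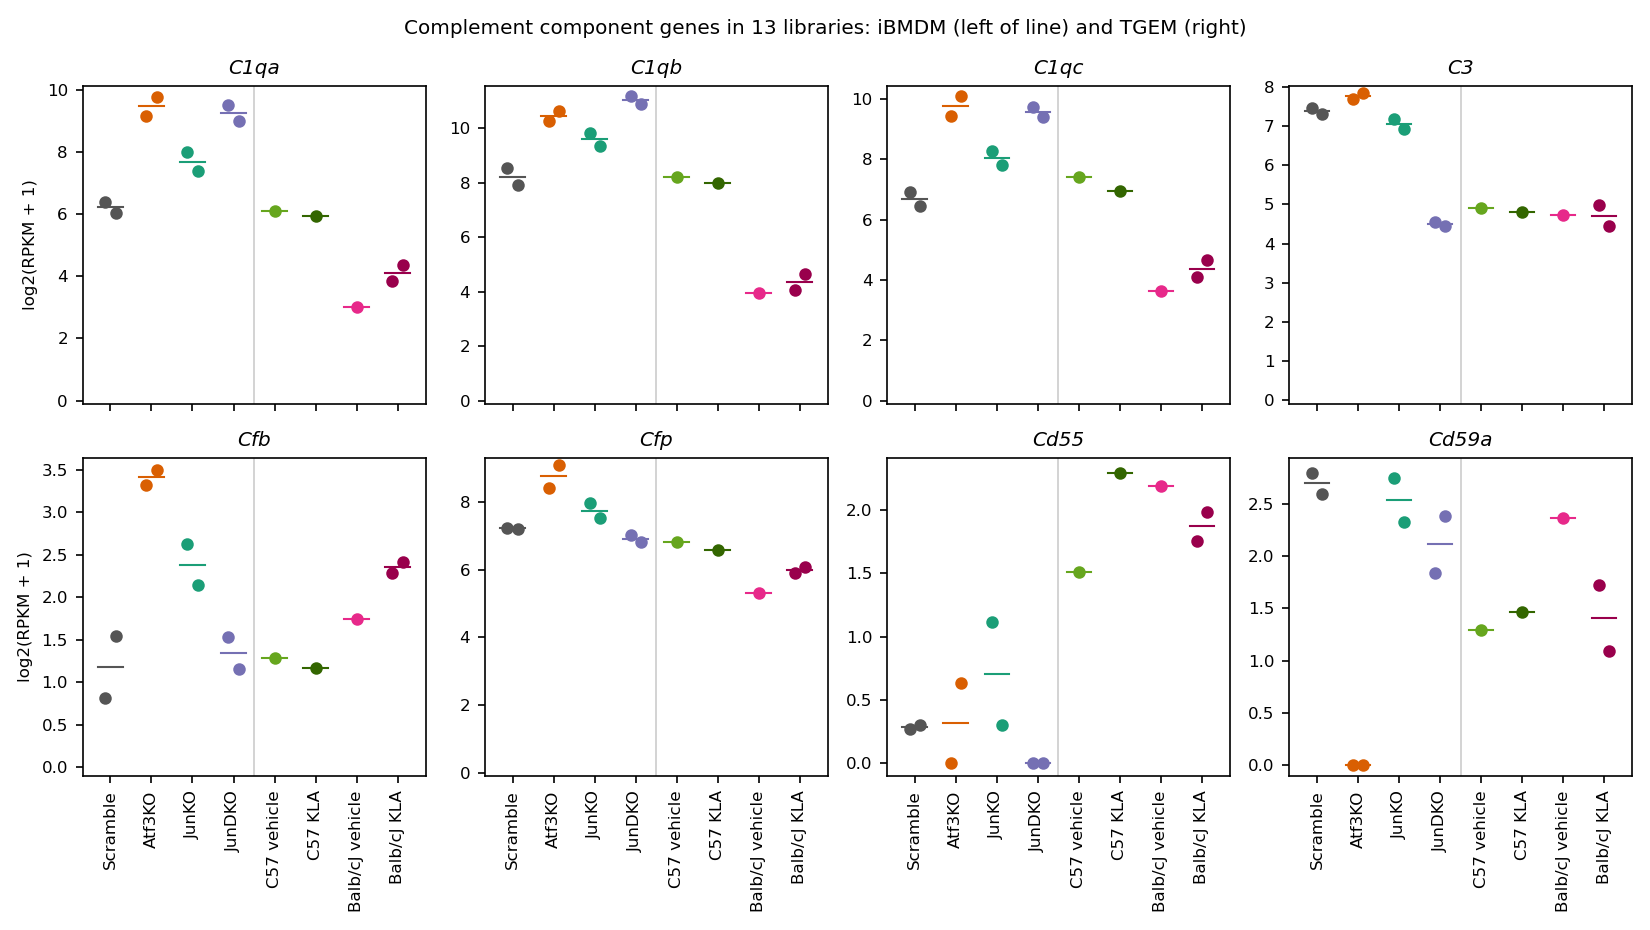
Expression of the 8 complement genes in 13 libraries, as log2(RPKM + 1) on the vertical axis, with a point for each library and a line at the group mean, for the iBMDM groups (Scramble, Atf3KO, JunKO and JunDKO) left of the grey line and the TGEM groups (C57Bl/6EiJ, written C57, and Balb/cJ, with vehicle or KLA) right of it. The C1q genes are high in Atf3KO and JunDKO and low in Balb/cJ, C3 is at 20.9 and 22.2 RPKM in JunDKO, and Cd59a is at 0 in both Atf3KO libraries.

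Differences were tested with limma on log2(RPKM + 1), and a gene passed at an adjusted p (Benjamini-Hochberg over all genes tested) under 0.05. In Atf3KO, C1qa rose by 3.25 ± 0.30 on the log2 scale (SE; 9.51-fold, adjusted p = 0.00036), C1qc by 3.09 ± 0.28 (8.54-fold, adjusted p = 0.00035) and C1qb by 2.22 ± 0.27 (4.66-fold, adjusted p = 0.0010). In JunDKO, C1qa rose by 3.03 ± 0.30 (8.15-fold, adjusted p = 0.00068), C1qc by 2.90 ± 0.28 (7.46-fold, adjusted p = 0.00064) and C1qb by 2.80 ± 0.27 (6.99-fold, adjusted p = 0.00057). Ordered from the largest positive difference down, C1qa ranked 50 of 10691 genes tested in Atf3KO and 28 in JunDKO. Read with all members, 6 of the 7 tested passed in Atf3KO (5 higher and 1 lower), where 41.2% of all genes passed (20.7% higher and 20.6% lower). In JunDKO 4 of 7 passed (3 higher and 1 lower), where 11.7% of all genes did (6.93% higher and 4.82% lower). The Atf3KO, JunKO and JunDKO comparisons share the same Scramble libraries. The median log2 difference of the 7 members was 2.22 in Atf3KO and 0.16 in JunDKO, against 0.05 and 0.23 over all genes tested. In bulk RNA a larger share of C1q-expressing cells and more C1q RNA per cell cannot be told apart.

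The Atf3KO differences went with the GC trend of those libraries, whose part was not tested: the C1q models have a GC content of 57.5% to 59.3%, against a median of 49.2% over all models. With the trend removed, a change of processing listed among the alternatives, the C1q genes still passed in Atf3KO, at 2.46 for C1qa, 1.59 for C1qb and 2.41 for C1qc on the log2 scale. The second Atf3KO library carries a later date in its title than the other iBMDM libraries, and without it the 3 differences were 2.93, 2.05 and 2.76. In JunDKO the differences with the GC trend removed were 2.73, 2.53 and 2.62, and without the Atf3KO and JunKO libraries in the fit they passed as well (highest adjusted p = 0.0023).

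The 7 macrophage markers, read beside C1q, differed in direction. Against Scramble, 5 of them were higher without overlap in Atf3KO (Cd68, Csf1r, Fcgr1, Mertk and Mrc1) and 0 lower, where 37.4% of all genes were higher and 33.4% lower in this way. In JunKO 4 were higher (Fcgr1, Mertk, Lyz2 and Mrc1) and 0 lower, where 19.1% and 18.1% of all genes were. In JunDKO the same 5 as in Atf3KO were higher and 2 lower, where 45.3% and 16.4% of all genes were. The lower ones were Adgre1, the F4/80 antigen, at 424 and 471 RPKM against 669 and 744 in Scramble, and Lyz2, a lysozyme of myeloid cells, at 15109 and 14815 against 21520 and 20190. Mrc1, the mannose receptor, was at 1.18 and 0.995 RPKM in Scramble, 16.4 and 12.2 in Atf3KO, 13.98 and 14.3 in the JunKO libraries and 62.7 and 63.2 in JunDKO, and Mertk, a receptor for the uptake of dying cells, at 7.04 and 8.27, 28.8 and 24.6, 14.1 and 11.2, and 36.1 and 36.8. The summed level of the 7 markers ran from 16520 to 17060 RPKM in JunDKO, 21700 to 23190 in Scramble, 23000 to 32340 in Atf3KO and 30030 to 30300 in JunKO. The part of these genes in the C1q values was not tested.

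In JunKO no member passed, while 0.281% of all genes did (0.159% higher and 0.122% lower, 30 of 10691 by limma, with 842 at an unadjusted p under 0.05). C1qa was 1.47 ± 0.30 higher than Scramble on the log2 scale (2.77-fold, adjusted p = 0.16), C1qb 1.36 ± 0.27 (adjusted p = 0.15) and C1qc 1.36 ± 0.28 (adjusted p = 0.16). From the largest positive difference down they ranked 103, 117 and 116 of the 10691 genes of that comparison, and 4 of the 7 members had an unadjusted p under 0.05. With the GC trend removed all 3 chains passed (highest adjusted p = 0.010), and with limma-voom on the recovered reads C1qb did (adjusted p = 0.042). With the replicate number as a block and the Atf3KO libraries out of the fit, an alternative chosen after seeing the data, all 3 passed as well (highest adjusted p = 0.0046, 2 residual degrees of freedom), and without the block in that fit none did (lowest adjusted p = 0.10). The labels do not say what a shared replicate number stands for.

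Direct comparisons placed JunKO below the other knockouts. Against JunKO, JunDKO was higher by 1.56 ± 0.30 for C1qa, 1.44 ± 0.27 for C1qb and 1.54 ± 0.28 for C1qc on the log2 scale (adjusted p = 0.018, 0.015 and 0.015), in a comparison where 4 of 7 members and 8.14% of all genes passed (3 members and 4.33% of genes higher, 1 member and 3.81% lower). These 3 calls were lost without either JunDKO library or without the second JunKO library, and those of C1qb and C1qc also without the first JunKO library (highest adjusted p = 0.17). Against JunKO, Atf3KO was higher by 1.78 ± 0.30 for C1qa, 0.86 ± 0.27 for C1qb and 1.73 ± 0.28 for C1qc (adjusted p = 0.0046, 0.039 and 0.0041), where 7 of 7 members and 35.5% of all genes passed (6 members and 17% of genes higher, 1 member and 18.5% lower). The C1qb call was lost under 10 of 18 alternatives, among them the GC correction (0.32, adjusted p = 0.13). Atf3KO and JunDKO, compared directly, gave no C1q gene that passed (adjusted p = 0.58, 0.11 and 0.61 for C1qa, C1qb and C1qc), in a comparison where 4 of 7 members and 40.7% of all genes passed (3 members and 14.9% of genes higher, 1 member and 25.9% lower). C1qb was 0.59 ± 0.27 lower in Atf3KO, and this passed with the GC trend removed (-0.93, adjusted p = 0.0021), with quantile normalization and with limma-voom.

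The 3 chains did not move in constant proportion. Per length, C1qb was the most abundant chain in 12 of 13 libraries. It was 3.20 to 4.48 times the level of C1qa in the 6 iBMDM libraries other than Atf3KO, and 2.19 and 1.78 times in Atf3KO. In the TGEMs the ratio was 4.30 and 4.15 in C57Bl/6EiJ and 1.20 to 2.04 in Balb/cJ. C1qc was at 1.19 to 1.45 times the level of C1qa in the 8 iBMDM libraries, 2.06 and 2.50 times in C57Bl/6EiJ TGEMs and 1.22 to 1.60 times in Balb/cJ. The share of C1qb in the summed C1q RPKM went from 59.4% to 64.7% in the 6 iBMDM libraries outside Atf3KO to 49.5% and 44.0% in Atf3KO, and it was 35.1% to 44.0% in Balb/cJ. Over the 8 iBMDM libraries log2 levels of C1qa and C1qc correlated with r = 1.00 and those of C1qa and C1qb with r = 0.96, values that share library depth and base composition.

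**Figure D2:**
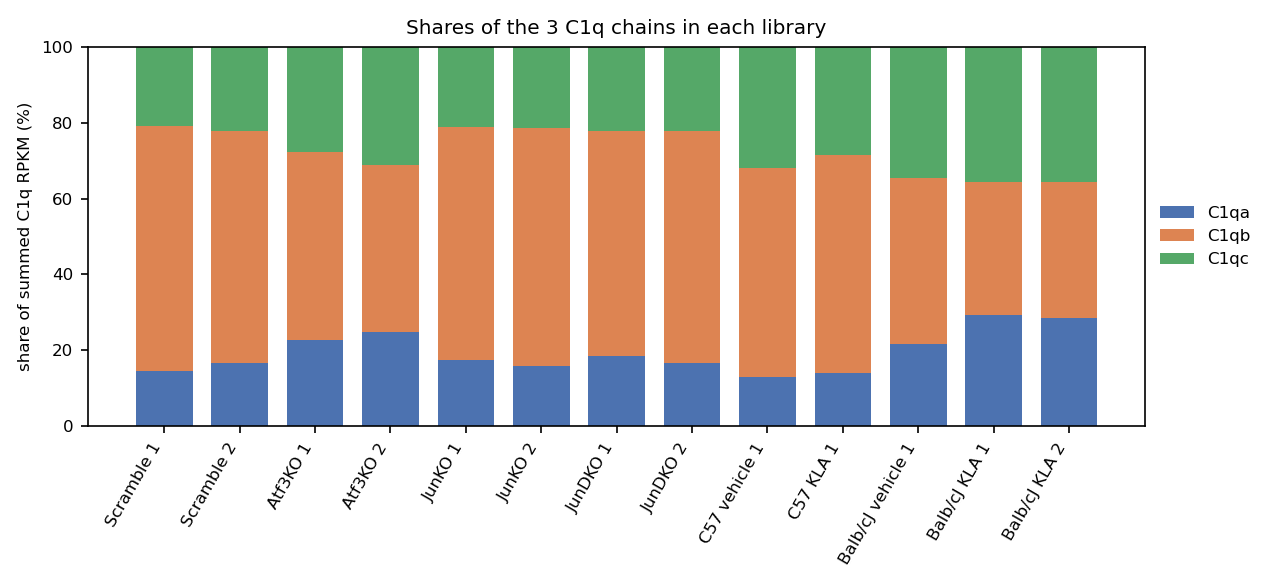
Shares of C1qa, C1qb and C1qc in the summed C1q RPKM of each library, in percent, with a stacked bar for each of the 13 libraries (C57 stands for C57Bl/6EiJ). The share of C1qb is 59.4% to 64.7% in Scramble, JunKO and JunDKO and 35.1% to 49.5% in Atf3KO and Balb/cJ.

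C3, the convergence point of the cascade, moved apart from C1q. It was at 175 and 157 RPKM in Scramble, 208 and 231 in Atf3KO, 144 and 121 in the JunKO libraries and 22.2 and 20.9 in JunDKO. These 4 groups did not overlap, and JunDKO lay far below the others. Against Scramble alone, 37.4% of all genes tested were higher without overlap in Atf3KO, and 18.1% were lower in JunKO and 16.4% in JunDKO. In JunDKO C3 fell by 2.89 ± 0.17 on the log2 scale (7.40-fold lower, adjusted p = 4.7e-05), ranking 70 from the lowest of 10691 genes, and it was 2.56 ± 0.17 lower than in JunKO (5.91-fold, adjusted p = 0.00012). The JunDKO call held under all 18 alternatives, from -3.16 to -2.69. In Atf3KO the difference was 0.40 ± 0.17 (1.32-fold, adjusted p = 0.091) and in JunKO -0.32 ± 0.17 (adjusted p = 0.74), and neither passed. Atf3KO and JunKO themselves differed by 0.72 ± 0.17 (1.65-fold higher in Atf3KO, adjusted p = 0.014), a call lost without the second JunKO library, with only these groups fitted (highest adjusted p = 0.096) or under a further demand of a 2-fold difference. The ratio of C1qb to C3 was 2.11 and 1.51 in Scramble and 104 and 89.4 in JunDKO.

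In JunDKO a neutrophil marker was at 0 beside the low C3. S100a8, a calcium-binding protein of neutrophils and monocytes, was at 34.8 and 33.2 RPKM in Scramble, 41.1 and 21.8 in Atf3KO, 22.7 and 24.1 in the JunKO libraries and 0 in both JunDKO libraries. Of the 8 neutrophil markers 2 were detected in any iBMDM library, S100a8 and Ltf (0.19 RPKM in 1 Scramble library), and the defining markers S100a9, Ly6g, Mpo, Elane, Camp and Retnlg were at 0 in all of them. The part of S100a8-expressing cells in the C3 values was not tested.

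**Figure D3:**
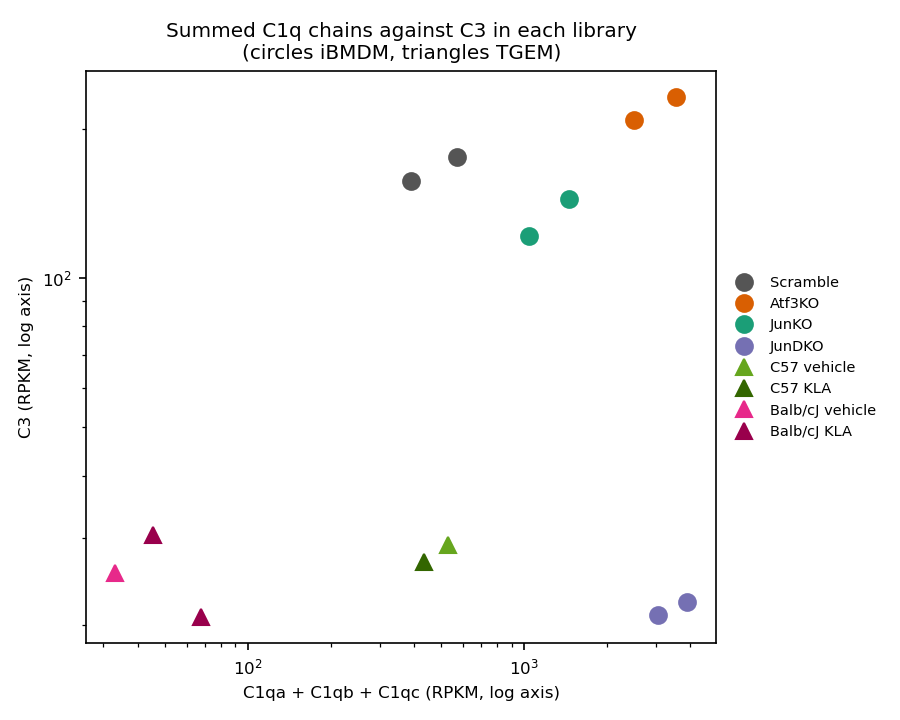
C3 (vertical axis, RPKM, log scale) against the summed C1qa, C1qb and C1qc (horizontal axis, RPKM, log scale), with a circle for each iBMDM library and a triangle for each TGEM library (C57 stands for C57Bl/6EiJ). JunDKO has a summed C1q of 3054 and 3895 RPKM with C3 at 20.9 and 22.2, Atf3KO holds both at a high level, and the TGEMs have C3 at 20.7 to 30.4 RPKM over a wide range of C1q.

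Factor B was a low transcript in the iBMDMs and rose in Atf3KO. Cfb was at 0.76 and 1.93 RPKM in Scramble (4 and 9 reads), 9.01 and 10.3 in Atf3KO (108 and 204 reads), 5.16 and 3.42 in JunKO (24 and 16 reads) and 1.89 and 1.23 in JunDKO (8 and 62 reads). Atf3KO was above all other groups, JunKO lay between, and JunDKO overlapped Scramble. In Atf3KO the difference was 2.23 ± 0.33 on the log2 scale (adjusted p = 0.0021). The call was lost under a further demand of 16 RPKM, which Cfb did not reach. By read rates, 312 against 13 reads gave a ratio of 7.51 (95% exact interval 4.33 to 14.3, which covers counting error only). In JunKO the log2 difference was 1.20 ± 0.33 (adjusted p = 0.32) and in JunDKO 0.16 ± 0.33 (adjusted p = 0.79), and neither passed. The read rates were 3.28 times as high in JunKO (1.72 to 6.68, 40 against 13 reads), beyond counting error, and 0.981 times in JunDKO (0.538 to 1.93, 70 reads). The neighbour Nelfe was at 39.7 and 76.7 RPKM in Atf3KO against 20.6 and 25.7 in Scramble and also passed (1.23 ± 0.30, adjusted p = 0.014), and its part in the Cfb reads was not tested. C2, on the other side of Cfb, was at 0 in 7 of the 8 iBMDM libraries.

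Properdin followed factor B in Atf3KO. Cfp was at 149.9 and 148 RPKM in Scramble, 341 and 554 in Atf3KO, 249.8 and 182 in the JunKO libraries and 129 and 111 in JunDKO. These groups did not overlap, with Atf3KO highest and JunDKO lowest. Against Scramble alone, 37.4% of all genes tested were higher without overlap in Atf3KO and 19.1% in JunKO, and 16.4% were lower in JunDKO. In Atf3KO Cfp rose by 1.54 ± 0.26 on the log2 scale (2.90-fold, adjusted p = 0.0034), and by 1.02 with the GC trend removed, where it still passed. JunKO differed by 0.52 ± 0.26 (adjusted p = 0.72) and JunDKO by -0.31 ± 0.26 (adjusted p = 0.47), and the latter passed with the GC trend removed (-0.57, adjusted p = 0.025). Against JunDKO, Atf3KO was 3.61-fold higher for Cfp (1.85 ± 0.26, adjusted p = 0.0013), 9.75-fold higher for C3 (3.29 ± 0.17, adjusted p = 3.6e-05) and 4.19-fold higher for Cfb (2.07 ± 0.33, adjusted p = 0.0022).

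**Figure D4:**
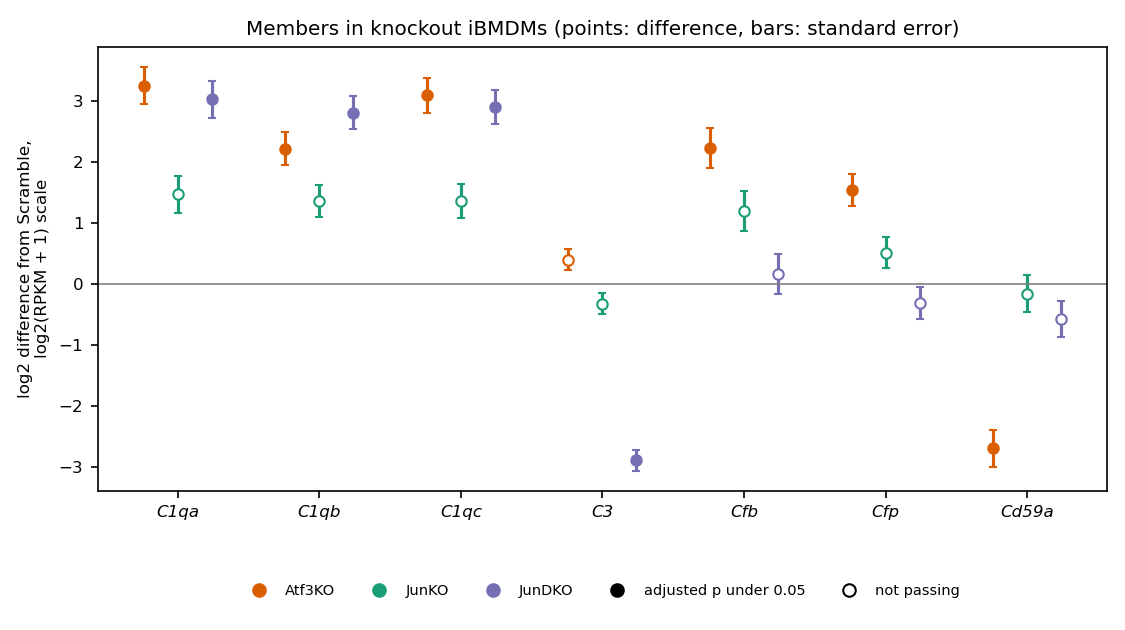
Log2 difference from Scramble on the log2(RPKM + 1) scale for the 7 members tested in the iBMDMs, as a point with a bar of 1 standard error for Atf3KO, JunKO and JunDKO (2 libraries each), filled where the adjusted p is under 0.05. The C1q genes lie at 2.22 to 3.25 in Atf3KO and JunDKO, C3 lies at -2.89 in JunDKO, and Cd59a at -2.70 in Atf3KO.

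The surface regulators were low in every group. Cd59a was at 5.95 and 5.03 RPKM in Scramble (20 and 15 reads), 5.73 and 4.02 in JunKO (17 and 12 reads), 2.59 and 4.24 in JunDKO (7 and 136 reads) and 0 in both Atf3KO libraries. Atf3KO lay below all other groups, and the others were near or across each other's ranges. In Atf3KO Cd59a fell (adjusted p = 0.00071), and against a floor of 3 reads over the group it was at least 37.3-fold lower than in Scramble. Of 8225 models with at least 35 reads over the Scramble libraries, as many as Cd59a had, 114 (1.39%) were at 0 in both Atf3KO libraries, against 0 in the JunKO libraries and 5 in JunDKO. The GC content of Cd59a is 44.0%, and that of the 114 models had a median of 44.3%, against 49.3% over the 8225. With the GC trend removed Cd59a still passed (-2.23 on the log2 scale), and the call was lost under a further demand of 16 RPKM. The differences in JunKO (-0.16 ± 0.30, adjusted p = 0.96) and JunDKO (-0.58 ± 0.30, adjusted p = 0.25) did not pass.

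Cd55 had 0 to 10 reads in any iBMDM library and was not tested there. It was at 0.206 and 0.232 RPKM in Scramble, 0 and 0.55 in Atf3KO, 1.17 and 0.232 in the JunKO libraries and 0 in both JunDKO libraries, and a count of 0 in the deeper JunDKO library allows up to 0.0647 RPKM. Over both libraries, 10 reads in Atf3KO against 2 in Scramble set the read rate 1.57 times as high (exact 95% interval from 0.333 to 14.7), and 6 reads in JunKO set it 3.20 times as high (0.571 to 32.4), so that neither difference from Scramble was detectable at this depth. The knockouts were not compared with each other for Cd55. Cd59b, a near copy of Cd59a, was at 0 in all iBMDM libraries and at most 0.389 RPKM in the TGEMs, and Cd55b was at 0 in all 13.

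In the TGEMs the C1q genes were low in Balb/cJ, and no other member passed between the strains. C1qa was at 68.0 RPKM in C57Bl/6EiJ vehicle and 60.2 in C57Bl/6EiJ KLA, against 7.14 in Balb/cJ vehicle and 13.2 and 19.3 in Balb/cJ KLA. C1qb was at 293 and 250.1 RPKM, against 14.5, 15.9 and 24.3, and C1qc at 170.1 and 124, against 11.4, 16.1 and 24.2. In the Balb/cJ vehicle library C1qa, C1qb and C1qc rested on 18, 36 and 28 reads. The strains did not overlap for any of the 3 chains, and 26.1% of all genes tested were lower in Balb/cJ without overlap. With treatment in the fit, C1qb was lower in Balb/cJ by 14.7-fold (-3.88 ± 0.31 on the log2 scale, adjusted p = 0.0015), C1qc by 8.59-fold (-3.10 ± 0.36, adjusted p = 0.0078) and C1qa by 5.20-fold (-2.38 ± 0.35, adjusted p = 0.022). These were the 3 of 8 members that passed, where 2.31% of all genes did (1.45% lower and 0.859% higher), and C1qb ranked 17 from the lowest of 10357 genes.

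The strain calls rest on few libraries. Without the Balb/cJ vehicle library none of the 3 passed (adjusted p = 0.22, 0.063 and 0.12 for C1qa, C1qb and C1qc, at -1.85, -3.60 and -2.59), and without the first Balb/cJ KLA library or the C57Bl/6EiJ vehicle library C1qb alone did, as it did with no filter on low values. The strain difference fell with GC content over all genes (Spearman rho = -0.45). With this trend removed C1qb and C1qc still passed, at -3.47 and -2.67, while C1qa did not (-1.88, adjusted p = 0.053). The C1qa call was also lost with quantile normalization. Strain, the date in the sample title and the genome used for alignment, which was a Balb/cJ version of mm10 for that strain, cannot be told apart. Of the 7 macrophage markers 5 had no overlap between strains and were lower in Balb/cJ, where 26.1% of all genes were lower and 9.06% higher in this way: Adgre1 was at 31.1 to 35.9 RPKM against 60.7 and 72.3, Csf1r at 58.6 to 83.1 against 173 and 183, Fcgr1 at 2.18 to 7.11 against 14.5 and 13.1, Mertk at 15.5 to 20.9 against 41.4 and 57.9, and Mrc1 at 13.2 to 22.9 against 38.8 and 34.3. Cd68 and Lyz2 overlapped. Markers of mesothelial cells and fibroblasts, all 7 of which were detected, summed to 54.4 and 62.1 RPKM in C57Bl/6EiJ and 40.9 to 85.0 in Balb/cJ, and those of B cells to 11.7 and 14.5 against 11.2 to 25.2, and the sums of neutrophil and mast cell markers overlapped as well. The strains did not overlap for the low sums of eosinophil markers, at 2.67 and 4.06 RPKM in C57Bl/6EiJ and 0.673 to 1.83 in Balb/cJ, or T cell markers, at 1.21 and 1.39 against 1.83 to 3.003. Their part in the C1q difference was not tested.

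Of the other members, Cfp was at 111 and 94.8 RPKM in C57Bl/6EiJ and 39.1, 58.5 and 66.2 in Balb/cJ (-0.98 ± 0.30, adjusted p = 0.13). Cfb went the other way, at 1.45 and 1.24 RPKM against 2.35, 3.89 and 4.35 (0.87 ± 0.30, adjusted p = 0.16). Neither passed, although their strains did not overlap. Without overlap, 26.1% of all genes tested were lower in Balb/cJ and 9.06% higher. C3 was at 29.0 and 26.8 RPKM against 25.5, 30.4 and 20.7 (adjusted p = 0.81), Cd55 at 1.85 and 3.91 against 3.57, 2.38 and 2.96 (adjusted p = 0.94), and Cd59a at 1.46 and 1.77 against 4.17, 2.30 and 1.14 (adjusted p = 0.54). For these 3 genes the strains overlapped.

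One hour of KLA gave no member that passed, of 8 tested, where 1.53% of all genes did (1.29% higher and 0.232% lower, 158 of 10357, limma), and 0 of the 8 had an unadjusted p under 0.05. The differences adjusted for strain ran from -0.48 ± 0.38 for Cd59a to 0.53 ± 0.35 for C1qa (adjusted p = 0.57 and 0.50), and 0 members passed under any alternative, limma-voom on recovered reads included. The vehicle and KLA groups overlapped for every member. C3 differed by -0.06 ± 0.27 (adjusted p = 0.94), Cfb by 0.30 ± 0.30 (0.66), Cfp by 0.28 ± 0.30 (0.68) and Cd55 by 0.15 ± 0.33 (0.85). For C1qa, C1qb and C1qc the adjusted differences (0.53, 0.14 and 0.23) have the opposite sign to the plain means, which were 30.9, 96.7 and 54.7 RPKM with KLA and 37.6, 154 and 90.7 with vehicle, since 2 of the 3 KLA libraries are Balb/cJ. Within libraries of 1 title date, KLA minus vehicle was -0.17 for C1qa in C57Bl/6EiJ and 0.81 in Balb/cJ, and -0.11 and 0.25 for C3. The interaction of KLA and strain, with 1 residual degree of freedom, passed for 0 members and 0 of 10357 genes (limma, with 835 at an unadjusted p under 0.05, and 0 by limma-voom).

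Between the cell kinds C3 differed and no C1q gene passed. C57Bl/6EiJ vehicle TGEMs and Scramble iBMDMs, the libraries of like strain and treatment, were at 68.0 against 82.7 and 64.6 RPKM for C1qa and at 293 against 371 and 238 for C1qb. The tested difference is that of an additive fit, in which the Balb/cJ and KLA libraries also bear on the TGEM level through the terms for strain and treatment. In it neither gene passed (-0.46 ± 0.40 and -0.20 ± 0.34, adjusted p = 0.38 and 0.65), nor did C1qc, at 170.1 against 119.5 and 86.3 (0.40 ± 0.39, adjusted p = 0.43). C3 was at 29.0 against 175 and 157 RPKM and was lower by 5.66-fold in the TGEMs (-2.50 ± 0.24, adjusted p = 2.0e-05). Cd59a was at 1.46 against 5.95 and 5.03 RPKM (-1.07 ± 0.38, adjusted p = 0.041) and Cd55 at 1.85 against 0.206 and 0.232 (1.54 ± 0.42, adjusted p = 0.012). Thus 3 of 8 members passed, 1 higher and 2 lower, where 46.3% of all genes did (16.1% higher and 30.2% lower), in a fit with 6 residual degrees of freedom. Between the named libraries alone the log2 difference was -0.10 for C1qa, -0.02 for C1qb, 0.74 for C1qc, -2.48 for C3, -1.40 for Cd59a and 1.23 for Cd55. The Cd59a call was lost under 12 of 22 alternatives and the Cd55 call under limma-voom (highest adjusted p = 0.066) and a further demand of 16 RPKM in either group. With the GC trend removed 5 members passed, namely C3, Cd55 and, lower in the TGEMs, C1qa, C1qb and Cfp (-1.14, -0.70 and -1.03), while Cd59a did not (-0.36, adjusted p = 0.46). Cell kind, date, culture and the sex that the Xist and Y-linked reads point to cannot be told apart here, and Cfp lies on the X chromosome. The TGEM library, as the only one of its group, is assumed to vary like the others. Markers of other cells moved with the cell kind: those of mesothelial cells and fibroblasts summed to 62.1 RPKM in the C57Bl/6EiJ vehicle library (7 of 7 detected) against 0.276 to 0.532 in Scramble, those of B cells to 14.5 against 0 to 0.443, of mast cells to 6.56 against 0 in both, of eosinophils to 2.67 against 0 to 0.234, of T cells to 1.39 against 0 to 0.252, and of neutrophils to 10.1 against 33.2 to 35.0. The defining markers Pax5, Cd3d, Cd3e, Cd3g, Epx, S100a9 and Ly6g were at 0 in that TGEM library. The part of such cells in the differences was not tested.

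Ordered by group mean, C1qa and C1qc were highest in Atf3KO, followed by JunDKO, whose range overlapped, and then JunKO, and lowest in Balb/cJ vehicle, with Scramble and C57Bl/6EiJ TGEMs between them. For C1qb JunDKO was first and Atf3KO second. C3 ran from Atf3KO over Scramble and JunKO to the TGEM groups, whose ranges lay together, and JunDKO. The JunDKO libraries, at 20.9 and 22.2 RPKM, lay within the TGEM range of 20.7 to 30.4 RPKM. Over the 13 libraries the lowest and the highest value differed by 159-fold for C1qb, 123-fold for C1qa, 96.8-fold for C1qc, 14.1-fold for Cfp, 13.6-fold for Cfb and 11.1-fold for C3.

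The other complement genes were taken from lists of 47 genes: proteases and substrates of the classical and lectin pathways, factor D, the terminal components, soluble and membrane-bound regulators, and receptors. Of these 11 were at 0 in all 13 libraries, among them Mbl1 and Mbl2 (the mannose-binding lectins), C7 and C9 (parts of the membrane attack complex) and C4bp, and 10 reached 16 RPKM in any library, 7 of which are receptors. Hc, which encodes C5, was at most 0.108 RPKM and C2 at most 2.55. In the iBMDMs 15 of the 47 were tested. In Atf3KO 2 rose and 3 fell, in JunDKO 3 rose and 4 fell, and in JunKO 0 passed (limma, with C1q and C3 not counted), beside the 41.2%, 11.7% and 0.281% of all genes in the same comparisons. The median log2 difference of the 15 was -0.21, 0.10 and -0.04, against 0.05, 0.23 and 0.01 over all genes.

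Receptors were among the genes that passed in JunDKO. Cd93, once described as a C1q receptor, was at 113 and 135 RPKM against 42.0 and 57.2 (1.32 ± 0.22, adjusted p = 0.0074). The integrin chains of complement receptor 3, which binds the C3 fragment iC3b, fell: Itgb2 was at 91.7 and 78.5 RPKM against 346 and 268 (3.56-fold lower, -1.83 ± 0.19, adjusted p = 0.00079) and Itgam at 213 and 219.9 against 441 and 420.2 (1.99-fold lower, -0.99 ± 0.16, adjusted p = 0.0060). The Cd93 and Itgam calls were lost without the first Scramble library or either JunDKO library (highest adjusted p = 0.087 and 0.072), and that of Itgam also under the demand of a 2-fold difference. The JunDKO libraries thus held C1q above Scramble and C3 and both chains of its receptor below it. C5ar2 also rose, and Clu and Itgax fell, each below 16 RPKM, and they were named after their values were seen.

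In Atf3KO C1qbp, a mitochondrial protein that can bind C1q, was at 213 and 184 RPKM against 112 and 125 in Scramble (0.73 ± 0.17, adjusted p = 0.010), a call lost without the first Scramble library (adjusted p = 0.056), with only these groups fitted (adjusted p = 0.052) and under the demand of a 2-fold difference. Cr1l, the rodent membrane regulator Crry, was at 13.2 and 8.96 RPKM against 30.1 and 35.8 (2.84-fold lower, -1.51 ± 0.23, adjusted p = 0.0023). C3ar1, the receptor of the C3a fragment, was at 161 and 89.1 against 204 and 209 (-0.78 ± 0.26, adjusted p = 0.042), a call that 11 of 18 alternatives did not keep. C8g rose and Clu fell, each below 16 RPKM, and they were named after their values were seen.

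**Figure D5:**
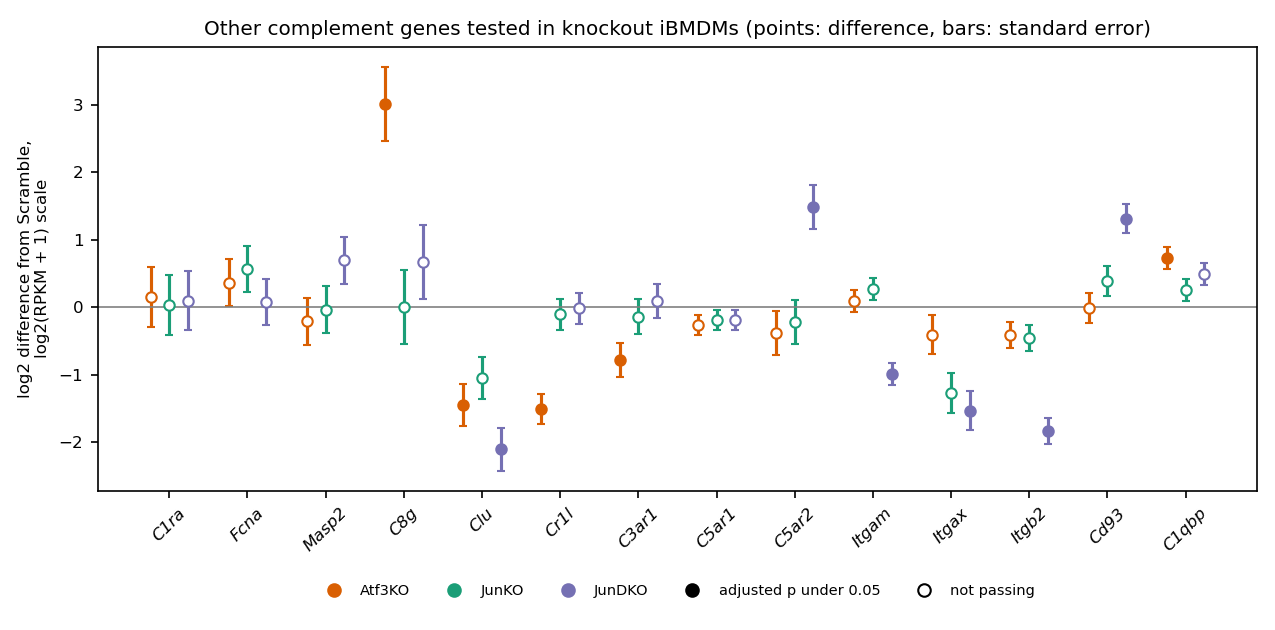
Log2 difference from Scramble on the log2(RPKM + 1) scale for 14 of the 15 other complement genes tested in the iBMDMs, as a point with a bar of 1 standard error for Atf3KO, JunKO and JunDKO, filled where the adjusted p is under 0.05. Cd93 is at 1.32 and Itgb2 at -1.83 in JunDKO, Cr1l is at -1.51 in Atf3KO, and all JunKO points are open.

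In the TGEMs 19 of the 47 were tested. With KLA 0 passed (limma), beside 1.53% of all genes, and between strains 2 were lower in Balb/cJ and 0 higher, beside 1.45% and 0.859% of all genes. C5ar1, the receptor of C5a, was at 6.72 RPKM in Balb/cJ vehicle and 31.8 and 16.5 in Balb/cJ KLA, against 88.9 and 144 in C57Bl/6EiJ vehicle and KLA (8.01-fold lower, -3.001 ± 0.371, adjusted p = 0.010), and the call was lost without the Balb/cJ vehicle library or either C57Bl/6EiJ library, or with no filter on low values. C5ar2, the other receptor of C5a, was the second, at up to 5.83 RPKM, and was named after its values were seen. Between C57Bl/6EiJ vehicle TGEMs and Scramble iBMDMs 8 of 17 tested were higher and 4 lower, beside 16.1% and 30.2% of all genes, in the same additive fit. Itgax, the alpha chain of complement receptor 4, was at 156 against 3.24 and 2.78 RPKM (5.35 ± 0.26, adjusted p = 2.5e-07) and its partner Itgb2 at 859 against 346 and 268 (1.55 ± 0.24, adjusted p = 0.00041), whereas Itgam was at 94.1 against 441 and 420.2 (-2.15 ± 0.24, adjusted p = 5.0e-05). By the fit C5ar1 was 3.92-fold lower and C1qbp 3.12-fold lower in the TGEMs, Fcna (ficolin A, a recognition molecule of the lectin pathway) 2.95-fold higher, Cd93 2.26-fold higher and Cr1l 2.06-fold lower. Between the named libraries alone these were 3.25-fold, 3.05-fold, 3.26-fold, 2.11-fold and 1.99-fold. The Fcna and Cr1l calls were lost without the second Scramble or the C57Bl/6EiJ vehicle library (adjusted p up to 0.26 and 0.071), and that of Cr1l also with the GC trend removed (-0.37, adjusted p = 0.11). With only the Scramble and vehicle TGEM libraries fitted, Itgb2, Cd93, Fcna and Cr1l did not pass (adjusted p = 0.066, 0.10, 0.14 and 0.075, at 1.49, 1.08, 1.71 and -0.99).

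The genes whose pattern over the 13 libraries was most like that of a member were named by Pearson's r of log2(RPKM + 1) among 6198 genes, as a description. They were Nek9 (r = 0.98), Tep1 (0.96) and Rnaseh2a (0.96) for the mean of the C1q chains, Lcn2 (0.98), Prdx5 (0.97) and Fpr1 (0.97) for C3, Slc39a7 (0.98) and Adam15 (0.97) for Cfp, and Cebpd, SlcUbl4a and Sdhaf1 (all 0.79) for Cfb. For Cd59a they were Zcrb1 (0.96), Mob4 (0.94) and Ube2d3 (0.94), and for Cd55 Jun (0.96), Fn1 (0.95) and Gadd45a (0.95). The libraries share depth and base composition, and the 2 cell kinds form separate clusters, so these values are no test.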

How the data were processed

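PolyA RNA-seq of 13 libraries was used, and the 4 GRO-seq samples of the series were not analysed here. Per the submitters' notes and the study's methods, the authors aligned C57Bl/6EiJ reads to mm10 and Balb/cJ reads to an mm10-based Balb/cJ sequence with STAR, and used HOMER to count exonic reads per gene. The deposited values are RPKM, with 1 model kept per gene. The tool versions and the strand option are not given in the sources used here. The reads behind each value were recovered from the steps between low RPKM values, of which 100.0% were whole within 0.05 reads in each library.

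Differences were tested with limma 3.58.1 in R 4.3.3 (limma-trend, two-sided) on log2(RPKM + 1), so that changes of low genes are understated, over genes with a mean of at least 1 RPKM, with Benjamini-Hochberg adjustment over all genes tested and 0.05 as the threshold. The 8 iBMDM libraries were fitted together (4 residual degrees of freedom), as were the 5 TGEM libraries with treatment and strain as terms (2), their product being added for the interaction (1), and all 13 for the cell kinds (6). Exact intervals (95%) and floors (3 reads) cover counting error only. Tables and figures were made in Python 3.11.15 (matplotlib 3.10.9, scipy 1.17.1, pandas 2.3.3 and numpy 2.4.6), and the fits were tested on simulated data.

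Alternatives were other pseudocounts (0.5 and 5), no filter, equal library medians, quantile normalization, removal of a GC trend (spline, 5 degrees of freedom), limma-voom on recovered reads, a further demand of 2-fold and 16 RPKM, a replicate block, other sets of libraries, the title date in place of strain, and leaving out each library. For the other complement genes they were chosen after seeing the data. Named genes were the members, listed complement genes that passed and reached 16 RPKM, and the 3 genes most like each member. Of the genes this rule names, 2 are not reported here. The members and lists were chosen with earlier results of these data known. Deviations of same-numbered iBMDM libraries correlated at 0.26 to 0.33 between Scramble, JunKO and JunDKO and at -0.28 to -0.18 with Atf3KO, and the labels do not say what a number stands for, so that a fit without the Atf3KO libraries, with and without the replicate block, was added after seeing the data.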

Additional observations from a re-analysis of the deposited data

Results flagged for a closer look

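For 7 of the 8 members KLA minus vehicle, on the log2(RPKM + 1) scale, had one sign in the C57Bl/6EiJ library and the other in both Balb/cJ KLA libraries, as had 30.2% of the 10357 genes tested. There was 1 vehicle library per strain, so both Balb/cJ values share their vehicle, in which the C1q chains rested on 18 to 36 reads. The second Balb/cJ KLA library carries a later title date than that vehicle, so KLA and date cannot be told apart in its values. C1qa was at -0.172 in C57Bl/6EiJ against 0.808 and 1.322 in Balb/cJ, C1qb at -0.225 against 0.117 and 0.703, and C1qc at -0.454 against 0.463 and 1.023. Cfb was at -0.128 against 0.547 and 0.675, and Cfp at -0.228 against 0.568 and 0.744. The surface regulators had the opposite signs, Cd55 at 0.786 against -0.436 and -0.205 and Cd59a at 0.168 against -0.648 and -1.275. C3 had mixed signs in Balb/cJ. In the test of the difference itself, the interaction of KLA and strain in limma with 1 residual degree of freedom, none of the 8 passed (adjusted p from 0.63 to 0.98).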

How the results depend on the processing

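Of 1236 values of members under alternatives, 1098 kept their direction and their side of the threshold, 71 lost and 18 gained a call, and 49 changed sign, all of the last among differences that did not pass. Of 31 calls, 14 held in every alternative run: C1qa, C1qb, C1qc and Cfp in Atf3KO and C1qa, C1qb, C1qc and C3 in JunDKO against Scramble, C1qa and C1qc in Atf3KO and C3 in JunDKO against JunKO, C3 and Cfp in Atf3KO against JunDKO, and C3 between cell kinds. For the other complement genes, 282 of 316 values kept their call, 34 lost it and 0 changed sign. The cause of a change was not tested. Leaving out a library of the interaction leaves no residual degrees of freedom, so it was not run, and an arm left with 1 library was assumed to vary like the others. Low depth limits Cfb, Cd55 and Cd59a most.

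Members passing in JunKO against Scramble went from 0 to 3 with the GC trend removed and 1 with limma-voom. For Atf3KO against JunKO they went from 7 to 3 with the demand of 2-fold and 16 RPKM and 3 with only the 2 groups fitted, and from 3 (without the second JunKO library) to 7 when libraries were left out. For JunDKO against JunKO, 4 passed, leaving out a library gave 1 to 5, and the other alternatives 4 to 6, with Cfb gained under the GC correction (-1.21, adjusted p = 0.041) and limma-voom, and Cfp under these (GC -1.02, adjusted p = 0.0021), equal medians and without either Atf3KO library. For Atf3KO against JunDKO the stricter demand gave 2. Between strains no filter gave 1, and leaving out a library 0 (without the Balb/cJ vehicle library) to 3. Between cell kinds the GC correction gave 5 and the stricter demand 1.

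Signs changed as follows on the log2 scale. In JunKO, Cd59a ran from -0.367 to 0.055 when libraries were left out. In JunDKO, Cfb was at -0.116 with equal medians, -0.066 with quantile normalization, -0.030 with the GC correction and -0.205 to 0.529 with libraries left out. In Atf3KO against JunDKO, C1qa was at -0.157 (quantile), -0.267 (GC) and -0.093 to 0.538 (libraries left out), and C1qc at -0.251, -0.202 and -0.139 to 0.527. With KLA, C1qb was at -0.065 (limma-voom) and -0.054 (title date), C1qc at -0.137 (limma-voom), and C3 at 0.080 (equal medians), 0.026 (quantile) and 0.070 (title date). Leaving out libraries took C1qa from -0.172 to 1.065, C1qb from -0.225 to 0.410, C1qc from -0.454 to 0.743, C3 from -0.196 to 0.070, Cfb from -0.128 to 0.611, Cfp from -0.228 to 0.656, Cd55 from -0.320 to 0.786 and Cd59a from -0.962 to 0.168. Between strains, C3 was at 0.080 and Cd55 at -0.260 with the GC correction, and with libraries left out Cd55 ran from -0.426 to 0.680 and Cd59a from -0.059 to 1.070. The interaction of C3 was at -0.008 (equal medians), -0.018 (quantile), -0.175 (GC) and -0.012 (limma-voom). Between cell kinds, C1qb was at 0.059 with equal medians and -0.656 to 0.117 with libraries left out, C1qc at -0.170 with the GC correction and -0.459 to 0.738, and Cfb at 0.158 (equal medians), 0.156 (quantile), 0.108 (only Scramble and vehicle TGEMs) and -0.630 to 0.264.

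Over all genes, the number passing was 30 in JunKO, against 122 with the GC correction and 14 with only the 2 groups. For Atf3KO against JunKO it was 3792, against 2004 with only those groups, and for JunDKO against JunKO 870, against 1456 with the GC correction. For KLA it was 158, against 57 (no filter), 240 (limma-voom), 431 (all 13 libraries) and 71 (title date), for the strains 239, against 44, 560 and 793 for the first 3 of these and 152 with the GC correction, and between cell kinds 5055, against 2042 with only Scramble and vehicle TGEMs. With libraries left out, the numbers ran from 2087 (without the second Scramble library) to 4432 in Atf3KO, where it was 4409, 13 (second Atf3KO) to 27 in JunKO, 409 (first JunDKO) to 1511 in JunDKO, where it was 1256, 1544 (second JunKO) to 3817 for Atf3KO against JunKO, 228 (first JunDKO) to 1126 for JunDKO against JunKO, 2147 (second JunDKO) to 4393 for Atf3KO against JunDKO, where it was 4355, 28 (Balb/cJ vehicle) to 149 for KLA, 32 (first Balb/cJ KLA) to 397 (second Balb/cJ KLA) for the strains, and 2780 (C57Bl/6EiJ vehicle) to 5205 between cell kinds. The interaction gave 0 genes, against 21 with a pseudocount of 5, 12 with all 13 libraries and 1 with equal medians. The share of passing genes that were higher moved with the scaling, from 59.0% to 30.8% with equal medians and 41.3% with quantile normalization in JunDKO, where the median of all genes moved from 0.23 to -0.04, from 53.2% to 27.0% and 37.0% in JunDKO against JunKO, from 36.5% to 48.4% and 47.5% in Atf3KO against JunDKO, from 37.2% to 49.1% and 51.1% between strains, and from 34.7% to 49.1% and 47.9% between cell kinds.

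The iBMDM groups share replicate numbers, and the labels do not say what these stand for. Deviations of same-numbered libraries correlated with r = 0.33, 0.30 and 0.26 between Scramble, JunKO and JunDKO, and with -0.28, -0.27 and -0.18 between each of these and Atf3KO (Scramble, JunKO, JunDKO), so that pairing was not established. With the replicate block 1 call of a member was lost, Cfb in Atf3KO against JunKO (1.03, adjusted p = 0.063, limma), and 4113, 14 and 1041 genes passed in Atf3KO, JunKO and JunDKO against Scramble, in place of 4409, 30 and 1256. Chosen after seeing the data, the replicate block without the Atf3KO libraries gave 141, 2654 and 2204 genes in JunKO and JunDKO against Scramble and JunDKO against JunKO, and the same fit without the block 24, 1560 and 1152. Of the members 3, 4 and 5 passed with that block and 0, 4 and 5 without it. The calls gained with it were C1qa, C1qb and C1qc in JunKO (1.47, 1.36 and 1.36, adjusted p = 0.0038, 0.0046 and 0.0027) and Cfp in JunDKO against JunKO (-0.83, adjusted p = 0.0072, and 0.035 without the block). The totals above leave these fits out.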
